A study of Sus scrofa with 102 samples.

Results

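*CEBPB*, *CEBPD*, *KLF15* and *KLF10* code for transcription factors that are linked to the glucocorticoid hormones, and their messenger RNA was followed in pig muscle. They were taken by symbol from the annotation of the array, as 4 of its 2201 named genes and 6 of the 5449 probes tested. *CEBPD* has 3 probes and each of the other genes has 1. The array's annotation numbers the *CEBPD* probes 3, 1 and 2 from the brightest to the dimmest, and probe 3, with the highest mean, stood for the gene.

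RNA came from the *Longissimus dorsi*, the long loin muscle, of 102 backcross pigs of an Iberian × Landrace cross (55 females and 47 males), each on 1 Affymetrix array. All pigs had free access to feed, and they were 171 to 184 days old with carcass weights of 43.6 to 97.8 kg. They were slaughtered in 3 batches: batch 1 held 14 pigs (8 females, 6 males), batch 2 held 70 (36 females, 34 males) and batch 3 held 18 (11 females, 7 males). Ages ran from 171 to 181 days in batch 1, 178 to 184 in batch 2 and 178 to 181 in batch 3. Most pigs of batch 1 were younger than every pig of the other batches. No treatment was given, so the comparisons are between batches, between sexes, along carcass weight and among individual pigs.

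Cortisol, the main glucocorticoid of pigs, enters the cell and binds the glucocorticoid receptor, coded by *NR3C1*, which then acts on genes directly. In muscle, glucocorticoids are known to raise *Klf15*, *Cebpb* and *Cebpd* together with the receptor cofactor *Fkbp5* and the anti-inflammatory gene *Tsc22d3*, and to shift the tissue towards breakdown of protein and use of fatty acids. KLF15 is known for driving amino acid breakdown, C/EBPβ and C/EBPδ also answer to inflammatory signals and act early in fat cell formation, and KLF10 was first described as an early gene of TGF-beta.

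Values are log2 intensities. Each probe was fitted in limma with sex, slaughter batch and carcass weight, and p-values were adjusted by Benjamini-Hochberg over all 5449 probes, with a threshold of 0.05. The probes are not the whole array but those kept by the authors for varying between pigs, so shares and percentiles over all probes refer to that set. Arrays correlated with each other at 0.605 to 0.977, and no pair was identical. On 3 arrays, all of pigs labelled female, the Y-linked *EIF1AY* lay on the male side of the midpoint between the sexes. Relatives in the pedigree were treated as independent. In a piece of tissue, fewer cells of a type and less RNA per cell cannot be told apart.

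*CEBPB*, *CEBPD* and *KLF15* were higher in batch 2 than in both other batches, while *KLF10* lay close to its batch 2 level in batch 1. *CEBPB* ranged from 11.58 to 14.43 in batch 2 with a median of 13.04. In batch 1 its lowest, median and highest values were 11.20, 11.88 and 12.89, and in batch 3 they were 10.78, 11.63 and 12.38. The batches overlapped, but the medians of batches 1 and 3 were close to the lowest pig of batch 2. With sex and weight in the fit, *CEBPB* was 2.13-fold lower in batch 1 than in batch 2 (log2 difference −1.09, SE 0.155, adjusted p = 1.96e-09) and 2.80-fold lower in batch 3 (−1.49, SE 0.144, adjusted p = 2.17e-16).

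*CEBPD*, by its brightest probe, had lowest, median and highest values of 8.27, 9.05 and 11.38 in batch 1. They were 8.81, 11.00 and 12.67 in batch 2, and 8.65, 9.91 and 11.32 in batch 3. The pigs of batches 1 and 3 lay mostly within the lower part of the batch 2 range. The gene was 3.08-fold lower in batch 1 (−1.62, SE 0.231, adjusted p = 1.79e-09) and 1.93-fold lower in batch 3 (−0.95, SE 0.213, adjusted p = 3.77e-05).

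The 3 *CEBPD* probes did not give the same batch difference. Probe 1 had medians of 4.62, 6.85 and 4.66 in batches 1, 2 and 3. Its differences from batch 2 were larger than those of probe 3, at −2.18 in batch 1 (SE 0.288, adjusted p = 1.94e-10) and −2.01 in batch 3 (SE 0.266, adjusted p = 7.42e-11). The dim probe 2 had medians of 3.06, 3.09 and 3.07, its mean of 3.27 was at the 2.28th percentile of all probes, and it showed differences of −0.20 (adjusted p = 0.243) and 0.04 (adjusted p = 0.821). A log2 difference at the bottom of the intensity range can understate a change, and what the dim probe measures was not tested.

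*KLF15* had lowest, median and highest values of 6.39, 7.50 and 8.95 in batch 1, 6.76, 8.53 and 10.88 in batch 2, and 7.00, 7.58 and 8.60 in batch 3. All 3 ranges overlapped, with batch 2 reaching highest. The difference from batch 2 was almost the same in the other batches, at −1.09 in batch 1 (SE 0.213, adjusted p = 4.46e-06) and −1.08 in batch 3 (SE 0.197, adjusted p = 6.02e-07), or 2.12-fold lower in both.

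*KLF10* differed from this. Its values were 11.48, 11.90 and 13.54 in batch 1, 10.96, 12.04 and 13.05 in batch 2, and 9.91, 11.67 and 12.89 in batch 3, again as lowest, median and highest. The ranges overlapped almost wholly. The difference was 0.03 in batch 1 (SE 0.158, adjusted p = 0.891) and −0.48 in batch 3 (SE 0.146, adjusted p = 0.00219), but the second was −0.04 and no longer past the threshold when the arrays were quantile normalised.

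**Figure D1:**
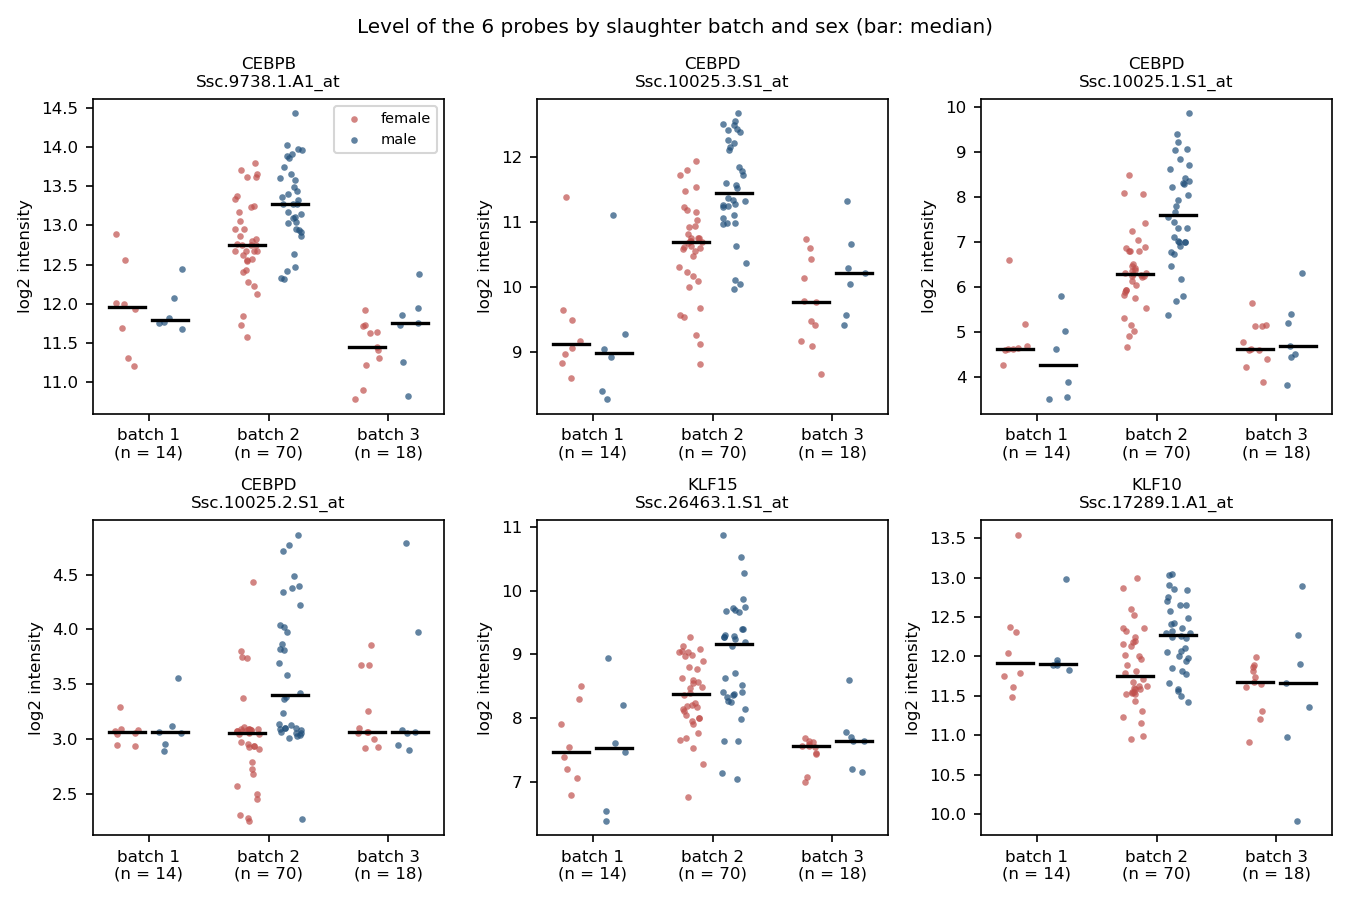
Log2 intensity (y axis) of each of the 6 probes in the 102 pigs by slaughter batch (x axis), with females in red, males in blue and a black bar at the median of each group. *CEBPB*, *KLF15* and the brighter *CEBPD* probes sit highest in batch 2, *KLF10* varies little between batches, and the dim *CEBPD* probe stays near 3.

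The difference between *KLF10* and the other genes was tested within arrays, on the other gene's value taken from that of *KLF10* (6 comparisons, two-sided). What was permuted were its residuals from a fit with sex, weight and batch but without the batch difference under test. From batch 2 to batch 1, *KLF10* changed less than *CEBPB* by 1.12 (SE 0.193, adjusted p = 2e-05), less than *CEBPD* by 1.65 (SE 0.240, adjusted p = 2e-05) and less than *KLF15* by 1.11 (SE 0.217, adjusted p = 3e-05). From batch 2 to batch 3, the gaps were 1.01 (SE 0.178, adjusted p = 2e-05), 0.47 (SE 0.222, adjusted p = 0.0347) and 0.61 (SE 0.201, adjusted p = 0.00335). All 6 gaps therefore passed the threshold, with *CEBPD* in batch 3 nearest to it.

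Batch differences were common on these arrays. Of all probes, 41.5% were lower in batch 1 than in batch 2, 45.3% were lower in batch 3, and 86.6% differed somewhere among the 3 batches. The median difference over all probes was −0.11 in batch 1 and −0.17 in batch 3, and it was 0.01 and −0.01 after quantile normalisation. Against that background, the differences of *CEBPB* and *KLF15* from batch 2 were at the 9.56th and 9.62nd percentile in batch 1 and at the 5.54th and 14.8th in batch 3. The brightest *CEBPD* probe was at the 1.96th in batch 1 but at the 20.1st in batch 3. Between batches 1 and 3 directly, 16.8% of probes differed, and among the 6 probes *KLF10* alone passed, higher in batch 1 by 0.50 (SE 0.187, adjusted p = 0.0494), while *CEBPD* was at −0.67 (adjusted p = 0.0746) and *KLF15* at −0.00 (adjusted p = 0.993).

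A sign of RNA quality moved with the batches. The array carries control probes along the beta-actin transcript, and a low 5′ value relative to the middle is commonly read as less complete RNA. This difference was −1.28 ± 0.30 (SD, n = 14) in batch 1, −0.80 ± 0.29 (SD, n = 70) in batch 2 and −1.32 ± 0.43 (SD, n = 18) in batch 3, so batch 2 was highest here too. With sex, batch and weight in the fit, *CEBPB* still rose with it (r = 0.443, adjusted p = 3.83e-05, Spearman's rho 0.465, 0.483 without the 2 most extreme pigs), as did *KLF15* (r = 0.262, adjusted p = 0.0184, rho 0.285, 0.285 without those pigs). *CEBPD* probes 1 and 2 rose with it too (r = 0.338, adjusted p = 0.00183, and r = 0.335, adjusted p = 0.00246), while the brightest probe was at r = 0.217 (adjusted p = 0.0532). *KLF10* was at r = 0.111 (adjusted p = 0.360, rho 0.0091, −0.00876 without those pigs). Of all probes, 27.6% rose with this measure.

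The relation was uneven between batches. In batches 1, 2 and 3 the correlation was 0.202, 0.603 and 0.139 for *CEBPB*, and 0.260, 0.266 and 0.0601 for the brightest *CEBPD* probe. It was −0.00, 0.387 and 0.0475 for *KLF15*, and 0.0120, −0.0533 and 0.50 for *KLF10*. In batch 3, 1 male was the lowest of all pigs both in the beta-actin difference (−2.43) and in *KLF10* (9.91). With the beta-actin difference as a further effect, the batch 1 and batch 3 differences were −0.78 and −1.15 for *CEBPB*, −1.40 and −0.70 for *CEBPD*, and −0.83 and −0.81 for *KLF15*. These were smaller than without it, and all 6 stayed past the threshold (largest adjusted p = 0.00680). Age also went with batch 1, whose pigs were mostly the youngest. With age at slaughter as the further effect, the batch 1 difference was −1.07 for *CEBPB*, −1.35 for *CEBPD* and −1.05 for *KLF15*, each past the threshold. The part of age in the batch 1 difference was not tested.

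All 6 probes were lower in females than in males, while 14.4% of all probes were lower in females and the median difference over all probes was −0.03. *CEBPD* ranged from 8.60 to 11.93 in females with a median of 10.48, and from 8.27 to 12.67 in males with a median of 11.23. The sexes overlapped along most of their range. The difference was −0.65 (SE 0.155, adjusted p = 0.000963), or 1.57-fold, and the other *CEBPD* probes had −0.83 (SE 0.194, adjusted p = 0.000837) and −0.45 (SE 0.105, adjusted p = 0.000852), so the dim probe, which showed no batch call, did show 1 for sex.

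*CEBPB* had a median of 12.56 in females (10.78 to 13.80) and of 13.04 in males (10.83 to 14.43), with a fitted difference of −0.38 (SE 0.105, adjusted p = 0.00394). *KLF15* had a median of 8.05 in females (6.76 to 9.28) and 8.41 in males (6.39 to 10.88), with −0.44 (SE 0.143, adjusted p = 0.0158). *KLF10* had a median of 11.75 in females (10.91 to 13.54) and 12.11 in males (9.91 to 13.05), with −0.29 (SE 0.107, adjusted p = 0.0328). Female and male values overlapped for each gene, and the highest *KLF10* value was that of a female. The *KLF10* difference was −0.17 and not past the threshold after quantile normalisation. Without the 3 arrays whose *EIF1AY* level went against the label, the differences were −0.40 for *CEBPB*, −0.69 for *CEBPD*, −0.49 for *KLF15* and −0.34 for *KLF10*, all past the threshold. In limma the sex difference was called as varying between batches for 0% of the 5449 probes (425 at an unadjusted p under 0.05). The adjusted p of the 6 probes was 0.456 or more, with an unadjusted p of 0.00149 for *CEBPD* probe 1 and 0.0456 for probe 3. In batch 2 probe 1 had means of 6.36 in females and 7.67 in males, whereas in batch 1 females were on average not lower by probes 1 and 3. Batches 1 and 3 hold 14 and 18 pigs, so the test could miss such a variation.

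Carcass weight showed no call. The slopes of the 6 probes lay between −0.06 and 0.11 per 10 kg, with adjusted p of 0.649 to 0.982. In limma 0% of probes passed for weight (589 at an unadjusted p under 0.05, smallest adjusted p = 0.0555), so heavier and lighter pigs of the same sex and batch were not told apart by these genes.

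The 3 probes of *CEBPD* went together across pigs, once sex, batch and weight had been taken out of each value. The residuals of probes 3 and 1 correlated at r = 0.876 (95% interval 0.821 to 0.916, rho 0.858, permutation p = 1e-05 for both, the smallest that 100000 permutations can give). The dim probe 2 correlated at 0.701 with probe 3 and 0.762 with probe 1, each again with permutation p = 1e-05. Within batches the 3 pairs ranged from 0.663 to 0.913. The dim probe thus followed its brighter neighbours from pig to pig while showing no batch difference past the threshold.

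**Figure D2:**
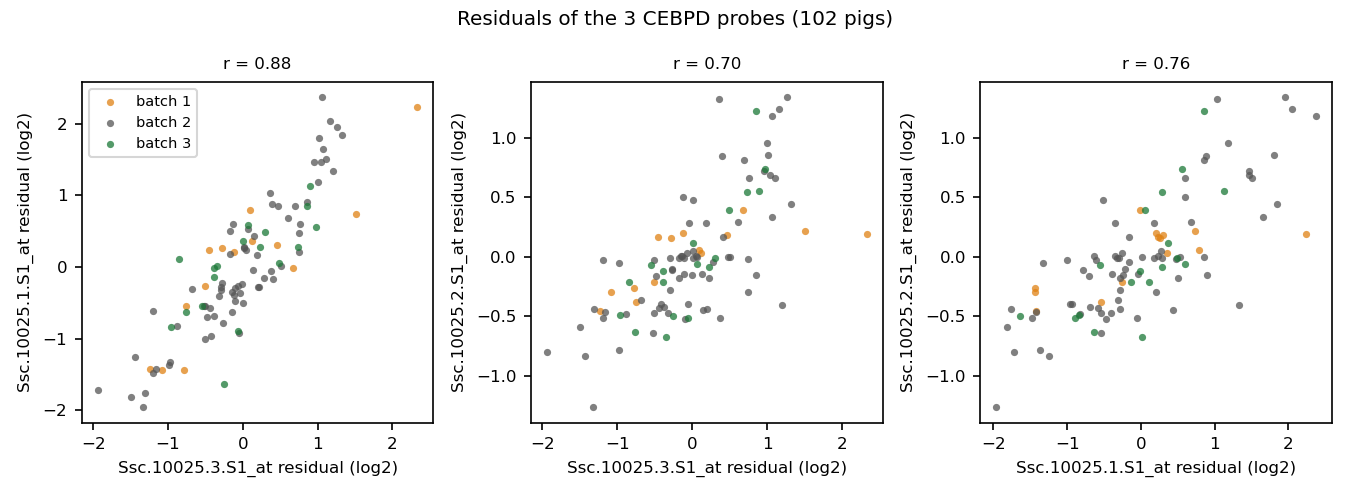
Residual log2 intensity of 1 *CEBPD* probe (x axis) against another (y axis) in 102 pigs, after sex, batch and carcass weight, with points coloured by batch. The panels pair probes 3 and 1, 3 and 2, and 1 and 2. The correlations are 0.876, 0.701 and 0.762 from left to right, and pigs of all 3 batches lie along the same bands.

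Among the 4 genes, *CEBPB*, *CEBPD* and *KLF15* rose and fell together from pig to pig, and *KLF10* followed them less closely. *CEBPB* and *KLF15* correlated at r = 0.669 (95% interval 0.542 to 0.765, rho 0.655, permutation p = 1e-05 for both, limma adjusted p = 3.19e-12). *CEBPD* and *KLF15* correlated at 0.662 (0.533 to 0.760, rho 0.671, permutation p = 1e-05 for both, limma adjusted p = 4.43e-11). *CEBPB* and *CEBPD* correlated at 0.609 (0.467 to 0.720, rho 0.590, permutation p = 1e-05 for both, limma adjusted p = 3.35e-10). These 3 pairs stand at the 95.9th to the 99.9th percentile of the correlations that the first gene of each has with all probes, and without the 2 pigs farthest from the median they were at 0.665, 0.652 and 0.598.

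The pairs with *KLF10* were weaker. *KLF15* and *KLF10* correlated at 0.362 (0.176 to 0.523, rho 0.359, permutation p = 0.00013 and 0.00021, limma adjusted p = 0.001). *CEBPD* and *KLF10* correlated at 0.306 (0.114 to 0.475, rho 0.357, permutation p = 0.00177 and 0.00035, limma adjusted p = 0.00664). *CEBPB* and *KLF10* correlated at 0.251 (0.0558 to 0.428, rho 0.284, permutation p = 0.0108 and 0.00395, limma adjusted p = 0.0204). Without the 2 farthest pigs these values were 0.325, 0.288 and 0.219, and refitted without those pigs *CEBPB* and *KLF10* no longer passed (adjusted p = 0.0521). All 3 pairs lost their call after quantile normalisation, at 0.222, 0.204 and 0.167 (adjusted p = 0.0565, 0.0928 and 0.149), and *CEBPB* and *KLF10* lost it in batch 2 alone (adjusted p = 0.124). By Williams' test of correlations that share a gene, *KLF15* followed *CEBPB* more closely than *KLF10* did (difference 0.417, adjusted p = 5.06e-05 over 6 comparisons), and it followed *CEBPD* more closely than *KLF10* did (0.356, adjusted p = 0.000383). The other 4 comparisons gave differences of 0.30 to 0.357 with adjusted p of 0.000872 to 0.00352, so in this fit every one of the 6 set *KLF10* apart. Williams' test was not run under the other settings.

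Within batches the order was less even. The correlation of *CEBPB* and *KLF15* was 0.276 in batch 1, 0.743 in batch 2 and 0.749 in batch 3. That of *CEBPD* and *KLF15* ran the other way, at 0.793, 0.656 and 0.491, and that of *CEBPB* and *CEBPD* was 0.444, 0.648 and 0.648. Batch 1 holds 14 pigs, and in none of the 12 ordered pairs did the slope differ between batches in limma (lowest adjusted p = 0.172). The 3 pairs with *KLF10* were positive in each batch, from 0.113 to 0.548. Slopes differing between batches were called for 0.367% of all probes with *CEBPB*, 0.514% with *CEBPD*, 3.87% with *KLF15* and 3.07% with *KLF10*.

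**Figure D3:**
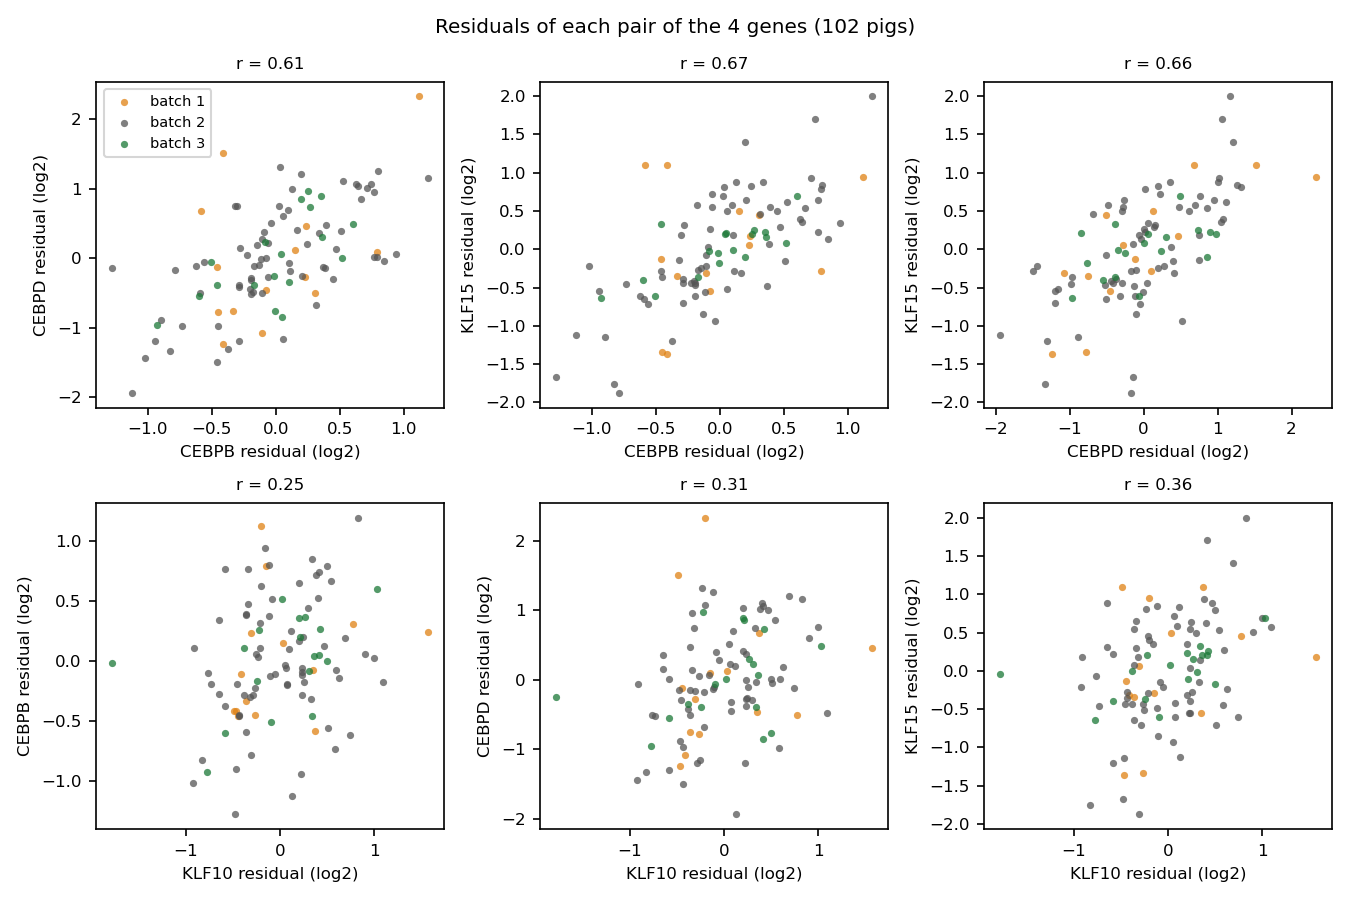
Residual log2 intensities of each pair of the 4 genes in 102 pigs after sex, batch and carcass weight, with points coloured by batch. The upper row (*CEBPB* with *CEBPD*, *CEBPB* with *KLF15*, *CEBPD* with *KLF15*) shows narrow clouds with r of 0.609 to 0.669, and the lower row, each with *KLF10* on the x axis, wider ones with r of 0.251 to 0.362.

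In 1 of the 12 ordered pairs the slope differed between the sexes. *CEBPB* and *KLF15* correlated at 0.616 in females and 0.746 in males, and the slope of *KLF15* on *CEBPB* was smaller in females by 0.34 log2 units per SD of *CEBPB* (adjusted p = 0.0464). *KLF15* values also spread less in females (SD 0.660) than in males (SD 1.04). The part of this spread in the slope difference was not tested. *CEBPD* and *KLF15* correlated at 0.539 and 0.765 (adjusted p of the slope difference 0.0599). *CEBPB* and *KLF10* correlated at 0.0143 in females and 0.515 in males, and this difference did not pass (adjusted p = 0.0871 and 0.361, depending on which gene was the response). Slopes differing between the sexes were called for 2.83% of probes with *CEBPB*, 1.52% with *CEBPD*, 1.38% with *KLF15* and 0% with *KLF10* (661 probes at an unadjusted p under 0.05 in limma).

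The first principal component of the residuals over all probes held 18.0% of their variance, and it followed the beta-actin difference (absolute r = 0.596). *CEBPB* lay along it at an absolute r of 0.762, *KLF15* at 0.544, *CEBPD* at 0.507 and *KLF10* at 0.040. With the first 2 components in the fit, the 3 stronger pairs were at 0.438 for *CEBPB* and *KLF15*, 0.417 for *CEBPD* and *KLF15*, and 0.358 for *CEBPB* and *CEBPD*, and each still passed in limma. The pairs with *KLF10* then lay closer to them, at 0.372 with *KLF15*, 0.317 with *CEBPB* and 0.288 with *CEBPD*, and also passed. *KLF15* and *KLF10* were thus above *CEBPB* and *CEBPD* in that fit, so *KLF10* was no longer clearly apart.

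**Figure D4:**
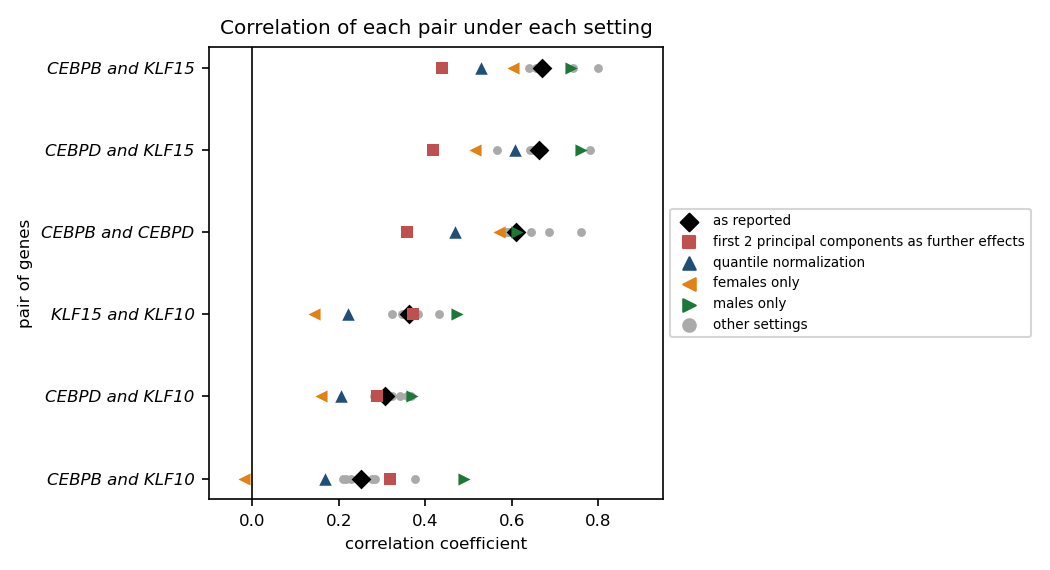
Correlation of each pair of genes (x axis, Pearson r of residuals) as reported (black diamonds) and under each other setting. The 3 pairs without *KLF10* stay between 0.358 and 0.798, with the lowest values when the first 2 principal components are in the fit, and *CEBPB* with *KLF10* is near 0 in females.

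Relations to other genes were tested with the residual of each of the 4 genes as a further effect, the gene's own probes being left out. Here a gene that rose or fell with a factor is one whose probe passed in limma over the pigs. Of all probes, 33.1% rose and 32% fell with *CEBPB*. For *CEBPD* the shares were 26.6% and 22.2%, for *KLF15* 27.3% and 25.1%, and for *KLF10* 3.73% and 2.59%. With the first 2 components in the fit the counts fell from 1802 and 1745 to 155 and 155 probes for *CEBPB*, and from 1489 and 1365 to 228 and 298 for *KLF15*, whereas those of *KLF10* went from 203 and 141 to 358 and 500.

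Over all relations of named genes given below, 179 of 281 passed. Each of those 179 had the same sign by Spearman's rho and without the 2 farthest pigs, where r moved by at most 0.112. Their largest permutation p was 0.0267 for r and 0.0996 for rho. The sign held within all 3 batches for 152, in batch 1 for 170, in batch 2 for 179 and in batch 3 for 161. Many of these genes were picked by large correlation or small p on the same pigs. The share that passed and the agreement of signs are therefore a description and no independent check.

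Part of the glucocorticoid response list rose with each factor. Of the 14 genes measured out of 30 on this list, 8 rose and 1 fell with *CEBPB*, 9 rose and 0 fell with *CEBPD*, 7 rose and 0 fell with *KLF15*, and 4 rose and 0 fell with *KLF10*. The shares of all probes rising were 33.1%, 26.6%, 27.3% and 3.73%. The median slope of the list was 0.20, 0.21, 0.17 and 0.13 log2 units per SD of the factor, against −0.01, 0.01, 0.00 and −0.01 over all probes. With the 2 components in the fit, 4 rose and 1 fell with *CEBPB*, 7 and 0 with *CEBPD*, 3 and 2 with *KLF15*, and 3 and 0 with *KLF10*, where 2.85%, 5.12%, 4.19% and 6.57% of all probes rose.

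*FOXO1*, a factor that turns on the ubiquitin ligases of muscle wasting, *GADD45A*, a growth arrest gene, and *LPIN1*, a phosphatidate phosphatase, rose with all 4 factors. *FOXO1* correlated at 0.521 with *CEBPB*, 0.617 with *CEBPD*, 0.610 with *KLF15* and 0.392 with *KLF10* (adjusted p = 0.00352 for the last). *GADD45A* correlated at 0.479, 0.643, 0.626 and 0.334 in the same order (adjusted p = 0.0168 for the last), and *LPIN1* at 0.396, 0.369, 0.505 and 0.296 (adjusted p = 0.0489 for the last).

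*PDK4*, the kinase that shuts off pyruvate dehydrogenase, rose with 3 of the 4: it correlated at 0.341 with *CEBPB*, 0.474 with *CEBPD* and 0.496 with *KLF15*, against 0.285 with *KLF10* (adjusted p = 0.0558). Its correlation with *KLF15* was −0.235 in batch 3. *TSC22D3*, the glucocorticoid-induced leucine zipper, correlated at 0.492, 0.573 and 0.453, against 0.182 with *KLF10* (adjusted p = 0.287), and in batch 1 it was at −0.00 with *CEBPB*. *FOXO3* correlated at 0.552, 0.368 and 0.380 with *CEBPB*, *CEBPD* and *KLF15*, and the cell cycle inhibitor *CDKN1A* at 0.329, 0.431 and 0.254.

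*FKBP5*, the cofactor that dampens the receptor, followed *CEBPD* more closely than *CEBPB* and *KLF15*. It correlated at 0.403 with *CEBPD* (rho 0.437, adjusted p = 0.000241) but at −0.03 with *CEBPB* (adjusted p = 0.838), 0.163 with *KLF15* (adjusted p = 0.161) and 0.273 with *KLF10* (adjusted p = 0.0747). The value with *CEBPD* was 0.394, 0.395 and 0.546 in batches 1, 2 and 3. It was above that with *CEBPB* (Williams' test, adjusted p = 2.15e-05 over 84 comparisons) and above that with *KLF15* (adjusted p = 0.0207). The other 4 comparisons of *FKBP5*, among them *CEBPD* against *KLF10* (adjusted p = 0.441), did not pass. The other *FKBP5* probe had 0.498 with *CEBPD*, 0.293 with *KLF15* and 0.170 with *CEBPB*, so that by it *KLF15* passed as well (adjusted p = 0.0083).

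*NR3C1*, the receptor itself, rose with *KLF10* (r = 0.364, rho 0.298, adjusted p = 0.0101). It correlated at 0.0610, −0.113 and 0.112 with *CEBPB*, *CEBPD* and *KLF15*, and the value with *KLF10* was above that with *CEBPD* (adjusted p = 0.000855). Against *CEBPB* (adjusted p = 0.0680) and *KLF15* (adjusted p = 0.0878) the difference did not pass. The second *NR3C1* probe was at 0.240 with *KLF10* and did not pass (adjusted p = 0.144). *GLUL*, *SGK1* and *ANGPTL4*, all known glucocorticoid targets, passed with none of the 4.

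**Figure D5:**
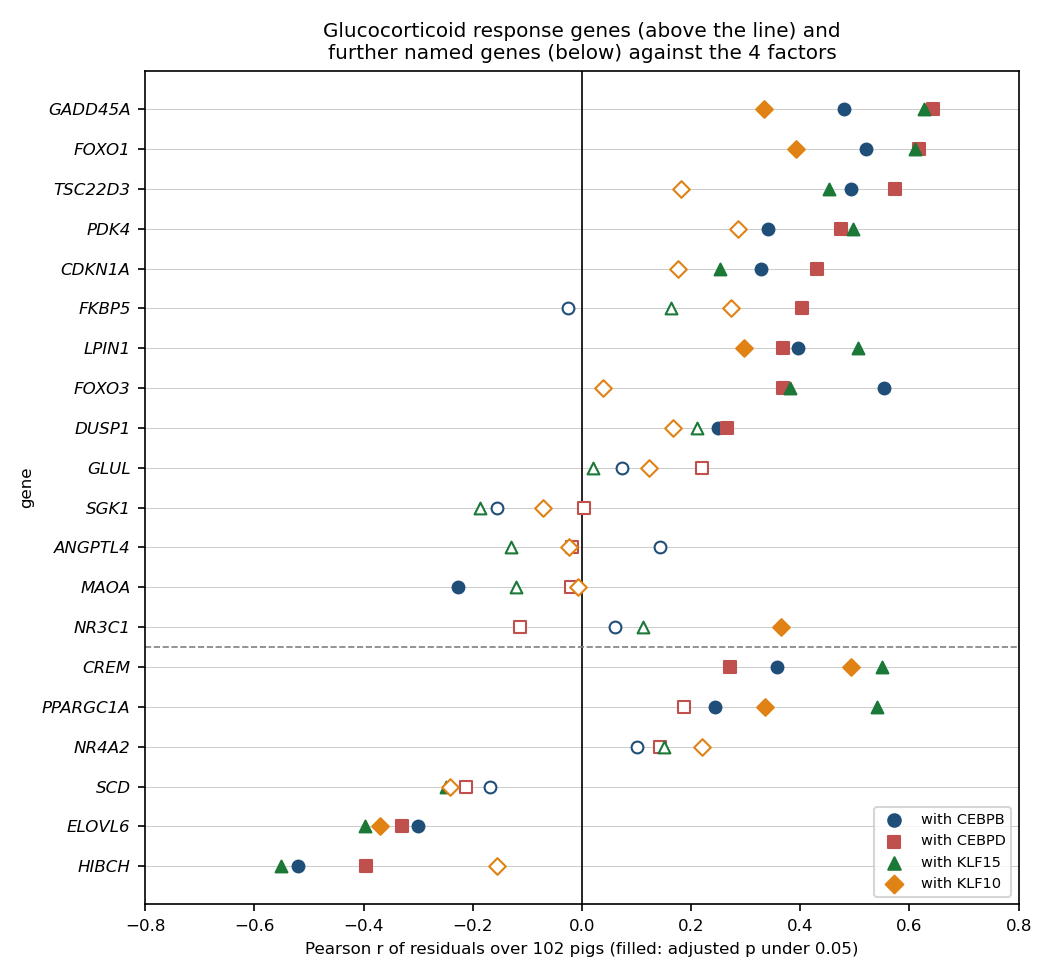
Pearson r (x axis) of 20 genes (y axis) with *CEBPB*, *CEBPD*, *KLF15* and *KLF10* over 102 pigs, with filled symbols for an adjusted p under 0.05. *FKBP5* is filled for *CEBPD* alone and *NR3C1* for *KLF10* alone, while *FOXO1*, *GADD45A* and *LPIN1* are filled for all 4.

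The same list did not move as 1 block between batches. Of its 14 genes, 1 rose and 7 fell in batch 1 against batch 2, and 3 rose and 7 fell in batch 3, with medians of −0.42 and −0.35. The share that fell is near that of all probes, 41.5% and 45.3%. In batches 1 and 3 the differences of *FOXO1* were −0.74 and −0.91, and those of *CDKN1A* −1.34 and −1.02. *FKBP5* was at −0.33 in batch 1 (adjusted p = 0.0798) and rose by 0.53 in batch 3 (adjusted p = 0.00234), and *TSC22D3* was at −0.29 (adjusted p = 0.0934) and −0.26 (adjusted p = 0.105). In females 0 rose and 4 fell: *FOXO1*, *GADD45A*, *NR3C1* and *PDK4*, with −0.64 for the last. The share of all probes lower in females was 14.4%.

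All 8 genes of muscle protein breakdown measured out of 18 on the list passed with each of *CEBPB*, *CEBPD* and *KLF15*. Each time 7 rose and 1 fell, and the 1 was *MSTN*, which codes for myostatin, a secreted brake on muscle growth. *FOXO1* and *FOXO3* are among the 7 and were also counted in the glucocorticoid response list. With *KLF10*, 1 rose, *FOXO1*. The shares of all probes rising and falling were 33.1% and 32% with *CEBPB*, 26.6% and 22.2% with *CEBPD*, and 27.3% and 25.1% with *KLF15*. With *KLF10* 3.73% rose. *GABARAPL1*, which codes for a protein of the autophagosome, correlated at 0.733 with *KLF15* and 0.656 with *CEBPD*, but in batch 3 at −0.0536 and 0.177. *SQSTM1*, an autophagy receptor, correlated at 0.599 with *CEBPB*, 0.506 with *CEBPD* and 0.590 with *KLF15*, and *PSMD11*, a proteasome subunit, at 0.538 with *CEBPB*. The ubiquitin ligase *FBXO32* rose with those 3 factors and was at 0.265 with *KLF10* (adjusted p = 0.0801). With the 2 components in the fit, 1 gene of the list rose with *CEBPB*, 3 with *CEBPD*, 3 with *KLF15* and 2 with *KLF10*. The shares of all probes rising were then 2.85%, 5.12%, 4.19% and 6.57%. In females 5 of the 8 fell and *MSTN* rose, where 14.4% of all probes fell.

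Amino acid breakdown genes passed in both directions with *CEBPB*, *CEBPD* and *KLF15*. Of 12 measured, 3 rose and 4 fell with *CEBPB*, where 33.1% and 32% of all probes did. With *CEBPD* 2 rose and 4 fell (26.6% and 22.2% of all probes), with *KLF15* 4 and 4 (27.3% and 25.1%), and with *KLF10* 0 and 4 (3.73% and 2.59%). For *CEBPB* and *KLF15* these shares are close to those of all probes. *BCAT2*, the enzyme of the first step in breaking down branched-chain amino acids, rose with *CEBPB* (r = 0.513), and the alanine aminotransferase *GPT* did so too (0.512). *HIBCH*, an enzyme of valine breakdown, fell with *CEBPB* (−0.521), *CEBPD* (−0.396) and *KLF15* (−0.550), with a value of −0.155 for *KLF10* (adjusted p = 0.389), which was weaker than for *KLF15* (adjusted p = 0.00181) and *CEBPB* (adjusted p = 0.0118). *CDO1*, of cysteine breakdown, fell with *KLF15* (−0.515), *CEBPD* (−0.469) and *KLF10* (−0.327), and *PCCA*, of propionate metabolism, fell with *KLF10* at −0.445.

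Of 17 measured fatty acid oxidation genes, 9 rose and 0 fell with *CEBPD*, where 26.6% and 22.2% of all probes did. With *CEBPB* 7 rose and 5 fell, close to the 33.1% and 32% of all probes, with *KLF15* 7 and 1 did, and with *KLF10* 2 and 2. The shares of all probes were 27.3% and 25.1% with *KLF15*, and 3.73% and 2.59% with *KLF10*. With the 2 components in the fit, 2 rose and 0 fell with *CEBPD*, 2 and 3 with *CEBPB*, 2 and 0 with *KLF15*, and 2 and 8 with *KLF10*. *UCP3*, a mitochondrial carrier of muscle, correlated at 0.636 with *CEBPB* and 0.539 with *KLF15*, and *PPARD*, a fatty acid sensing receptor, at 0.603 with *KLF15* and 0.497 with *CEBPB*. *CPT1B*, which lets fatty acids into mitochondria, correlated at 0.458 with *CEBPD*. *ACADL*, an acyl-CoA dehydrogenase, fell with *CEBPB* (−0.500). In females 0 of the 17 rose and 8 fell, where 14.4% of all probes fell.

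*PPARGC1A*, a coactivator of mitochondrial genes, followed *KLF15* (r = 0.540, rho 0.462) more closely than it followed *CEBPD* (0.187, adjusted p of the difference 6.23e-05) or *CEBPB* (0.244, adjusted p of the difference 0.000982). It rose with *KLF10* as well (0.335, adjusted p = 0.0160).

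Of 8 measured genes of fatty acid synthesis, 2 rose and 3 fell with *CEBPB* and 1 and 2 with *CEBPD*, where 32% and 22.2% of all probes fell. With *KLF15* 0 rose and 4 fell, and with *KLF10* 0 and 2 did (25.1% and 2.59% of all probes fell). With the 2 components in the fit, 1 rose and 0 fell with *CEBPB*, none passed with *CEBPD*, 1 rose and 1 fell with *KLF15*, and 0 rose and 3 fell with *KLF10*. *ELOVL6*, the elongase of long-chain fatty acids, fell with *CEBPD* (−0.330), *KLF15* (−0.398) and *KLF10* (−0.370, adjusted p = 0.00613), and also with *CEBPB* (adjusted p = 0.00427). *IDH1*, a source of NADPH, fell with all 4, at −0.387, −0.265, −0.288 and −0.445. *SCD*, the stearoyl-CoA desaturase, fell with *KLF15* (−0.249, adjusted p = 0.0241) and passed with no other of the 4.

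Of 10 measured glycerolipid genes, 7 rose with *CEBPB*, 4 with *CEBPD* and 6 with *KLF15* and none of them fell, while 1 rose and 1 fell with *KLF10*. Of all probes, 33.1%, 26.6%, 27.3% and 3.73% rose with these factors. The hormone-sensitive lipase *LIPE* correlated at 0.508 with *CEBPD*, and the triglyceride lipase *PNPLA2* at 0.448. Of 11 genes of glucose and glycogen, 6 rose with *CEBPB*, 3 with *CEBPD* and 5 with *KLF15*, none fell, and 1 fell with *KLF10*, the lactate dehydrogenase *LDHB* (−0.315). The count with *CEBPD* is close to the share of all probes. The insulin-dependent glucose transporter *SLC2A4* correlated at 0.602, 0.385 and 0.534 with *CEBPB*, *CEBPD* and *KLF15*, and the glycogen synthase *GYS1* at 0.607 with *CEBPB*.

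Immediate-early and stress genes switch on within a short time of a stimulus. Of 18 measured, 13 rose and 1 fell with *CEBPB*, 13 and 1 with *CEBPD*, 14 and 1 with *KLF15*, and 8 and 0 with *KLF10*. The shares of all probes rising were 33.1%, 26.6%, 27.3% and 3.73%. The gene that fell was the heat shock cognate *HSPA8*. *CREM*, a cAMP-responsive factor, correlated at 0.550 with *KLF15* and 0.493 with *KLF10*, against 0.357 with *CEBPB* and 0.271 with *CEBPD*, and *KLF15* exceeded *CEBPD* (adjusted p = 0.00182) and *CEBPB* (adjusted p = 0.0496). Another *CREM* probe had 0.444 and 0.459 with *KLF15* and *KLF10*, and the third passed with none of the 4. The orphan receptor *NR4A3* correlated at 0.564 with *KLF15* and 0.437 with *KLF10*, while its relative *NR4A2* passed with none. Against batch 2, 3 of the 18 rose and 5 fell in batch 1 with a median of −0.25, and 1 rose and 12 fell in batch 3 with a median of −0.99, where 41.5% and 45.3% of all probes fell. With the 2 components in the fit, 3 rose and 0 fell with *CEBPB*, 1 and 1 with *CEBPD*, 3 and 2 with *KLF15*, and 5 and 1 with *KLF10*. The shares of all probes rising were then 2.85%, 5.12%, 4.19% and 6.57%, and the count with *CEBPD* is close to its share.

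Inflammatory and TGF-beta genes passed in counts near or below the shares of all probes. Of all probes, 33.1% rose and 32% fell with *CEBPB*, and 26.6% and 22.2% with *CEBPD*. With *KLF15* the shares were 27.3% and 25.1%, and with *KLF10* 3.73% and 2.59%, so few or no calls are to be looked for with *KLF10*. Of 9 acute phase and interleukin 6 genes, 2 rose and 1 fell with each of *CEBPB*, *CEBPD* and *KLF15* and none passed with *KLF10*. *STAT3*, the factor that carries the interleukin 6 signal, correlated at 0.486, 0.457 and 0.375, and *JAK2*, the kinase upstream of it, at −0.563, −0.270 and −0.447. Of 7 TGF-beta genes, none passed with *KLF10*, while *TGFB1* rose (r = 0.493) and *TGFBR1* fell (−0.490) with *CEBPB*. With *CEBPD* 1 of the 7 rose and 1 fell, and with *KLF15* 2 rose and 1 fell. Of 4 other measured members of the C/EBP and Krüppel-like families, none passed with *CEBPB* or *CEBPD*, and *DDIT3* and *KLF4* rose with *KLF15* (0.457 and 0.345) and with *KLF10* (0.479 and 0.304). Of 2 oxidative phosphorylation genes, *SDHA* rose with *CEBPB* (0.293) and *CEBPD* (0.310) and *NDUFV2* fell with *CEBPD* (−0.268).

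Of the markers of other cells, those of fibroblasts passed most often with *CEBPB*, *CEBPD* and *KLF15*. Of 4 measured fibroblast markers, 3 fell with *CEBPB*, 2 with *CEBPD*, 3 with *KLF15* and 0 with *KLF10*. The shares of all probes falling with these factors were 32%, 22.2%, 25.1% and 2.59%, and the shares rising were 33.1%, 26.6%, 27.3% and 3.73%. The matrix proteoglycan *DCN* correlated at −0.306, −0.439 and −0.242 with the first 3, and *LUM* at −0.307, −0.385 and −0.295. The mean level of the 4 markers ranged from 7.59 to 8.64 in batch 1, 6.97 to 9.01 in batch 2 and 7.10 to 8.68 in batch 3, and its residual correlated at −0.280, −0.298, −0.255 and −0.0385 with *CEBPB*, *CEBPD*, *KLF15* and *KLF10*. Of 3 adipocyte markers, *LPL* rose with *KLF15* (0.273), and *ADIPOQ* and *FABP4* passed with none. Of 3 macrophage markers, *CD163*, itself a known glucocorticoid target, rose with *CEBPD* (0.312) and *KLF15* (0.327), and *MRC1* and *AIF1* passed with none. Of 5 endothelial markers, *VWF* rose with *CEBPB* (0.375) and *CLDN5* fell with *KLF15* (−0.316) and *KLF10* (−0.373). The adipocyte, macrophage and endothelial counts are near or below the shares of all probes, apart from the fall of *CLDN5* with *KLF10*. Between batches, 3 of the 4 fibroblast markers rose and 1 fell in batch 1 against batch 2 (median 0.62), and 2 rose and 1 fell in batch 3 (0.27). All 3 macrophage markers rose in batch 1 (median 0.79) and 1 in batch 3 (−0.01), while 2 endothelial markers rose in batch 1 (0.32) and 2 fell in batch 3 (−0.17). Of all probes, 41.5% fell in batch 1 and 45.3% in batch 3, and 86.6% differed among the 3 batches, so such calls are common. The part of these cells in the relations and in the batch differences was not tested, and no red blood cell marker was among the named probes.

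Muscle fibre markers were measured unevenly. *ATP2A1*, the calcium pump of fast fibres, correlated at 0.627 with *CEBPB* and 0.325 with *KLF15* but at 0.194 with *CEBPD* (adjusted p = 0.0940) and −0.0142 with *KLF10* (adjusted p = 0.957). It was the 1 fast fibre marker among the named probes. Its lowest, median and highest levels were 10.54, 12.22 and 13.91 in batch 1, 11.24, 13.49 and 14.99 in batch 2, and 10.73, 12.24 and 13.08 in batch 3. Of 5 slow fibre markers, *MYL3* rose with *CEBPB*, *CEBPD* and *KLF15* (0.326, 0.285 and 0.278), *TNNI1* rose with *CEBPD* (0.243) and *ATP2A2* fell with *CEBPB* (−0.219). With these 3 factors 1, 2 and 1 of the 5 rose, where 33.1%, 26.6% and 27.3% of all probes did. With *CEBPB* 1 fell, where 32% of all probes did. These few calls are not set apart from the shares of all probes.

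The genes whose pattern across pigs was most like each factor were picked by residual correlation over 102 pigs. For *CEBPB* these were *SYS1* (0.762), *HMOX2* (0.740), *TRIP10* (0.731), *FXR2* (0.729) and *VPS72* (0.726), and the most opposed were *ARHGAP5* (−0.687), *SLK* (−0.662), *MED21* (−0.639), *GPRASP2* (−0.627) and *RAN* (−0.618). For *CEBPD* they were *HMOX2* (0.714), *ABHD4* (0.703), *GADD45G* (0.697), *TWF2* (0.670) and *GABARAPL1* (0.656), with *MXRA7* (−0.626), *ADD3* (−0.594), *FAP* (−0.574), *MARCKS* (−0.560) and *PGM3* (−0.554) most opposed. *HMOX2*, the constitutive haem oxygenase, appears for both and for *KLF15*.

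For *KLF15* the nearest were *GABARAPL1* (0.733), *RASGEF1B* (0.727), *HMOX2* (0.715), *PPP1R15A* (0.706) and *RETREG1* (0.698), of which *PPP1R15A* is known to release the stress block on translation and *RETREG1* to serve the autophagy of the endoplasmic reticulum. The most opposed were *SERTAD2* (−0.684), *BBX* (−0.639), *ACSL3* (−0.634), *BMPR1A* (−0.625) and *FANCF* (−0.611), and the sign of *FANCF* turned in batch 1 (0.0883). For *KLF10* the nearest were weaker: *IFRD1* (0.497), *ETS2* (0.493), *CREM* (0.493), *DDIT3* (0.479) and *PIM3* (0.473), against *MPZL1* (−0.567), *IDH1* (−0.445), *PCCA* (−0.445), *SLC25A1* (−0.435) and *ACSL3* (−0.406). *IDH1* and *SLC25A1*, the mitochondrial citrate carrier, both feed fatty acid synthesis. All of these correlations were picked for their size and are a description.

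Counted over all 4 factors, 1285 probes passed with none, 1151 with 1, 924 with 2, 1941 with 3 and 142 with 4. The relations were measured on the same pigs and the same arrays, so they share array quality and normalisation.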

How the data were processed

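The authors read Affymetrix porcine arrays with the Affymetrix operating software, checked array quality with affyPLM and normalised them by GCRMA in BRB-ArrayTools, per the paper's methods and the submitters' processing notes. The deposited values are log2 intensities, 1 per probe and pig, for 5493 probes, and 44 control probes were left out of the tests. Before deposit they kept probes with more than 20% of arrays over 1.5-fold from the median, per their methods, and 5340 of the 5449 probes tested (98%) meet this in the deposited values. No column was left unused. Of the 5449 probes tested, 2639 had 1 gene symbol in the platform annotation, 49 had several and 2761 had none. No probe sequence was used.

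Models were fitted in limma 3.58.1 under R 4.3.3 (lmFit and eBayes) with sex, batch and carcass weight, and figures were drawn with matplotlib 3.10.9. Relations took the standardised residual of a gene's probe as a further effect. Permutation tests used 100000 permutations and were two-sided. The limma fits of batch, sex, weight and a gene's residual were tried on simulated data with independent probes. Williams' test was tried on simulated sets of 3 values. The permutation tests and the fits of slope differences were not tried in this way. Array intensities carry no read depth, so the number of arrays limits precision.

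The members and gene lists were chosen with earlier results of these data known. Lists share genes, among them *FOXO1*, *FOXO3*, *GADD45A*, *DUSP1*, *PDK4* and *LPIN1*, so their counts are not independent. Named genes were all member probes, for each factor the 5 nearest and 5 most opposed genes, up to 3 genes of each list by smallest p, and a fixed set of glucocorticoid and fat genes. Williams' tests, the comparison of *KLF10* within arrays and the other settings of the slope difference between sexes were added after the data had been seen. Alternatives were quantile normalisation, other covariates, array weights, principal components, the beta-actin difference, single batches or sexes, other probes and leaving out the 2 farthest pigs.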

Additional observations from a re-analysis of the deposited data

Results flagged for a closer look

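The slope of *KLF15* on *CEBPB* differed between the sexes in limma (adjusted p = 0.0464). It was smaller in females by 0.34 log2 units per SD of *CEBPB*, and the correlation was 0.616 in females and 0.746 in males. The SD of *KLF15* values was 0.660 in females and 1.04 in males, and its part in the slope difference was not tested. The slope of *CEBPB* on *KLF15* did not differ by the same test (adjusted p = 0.400). In 1 of 12 ordered pairs of the 4 genes the test passed, and under 4 of 7 other settings it no longer passed the threshold of 0.05, while without the 3 arrays against their sex label it did (adjusted p = 0.0411). The batches hold 14, 70 and 18 pigs, too many for the test of single outlying samples.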

How the results depend on the processing

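Batch differences kept their direction and their side of the threshold in 73 of 76 alternative values, sex differences in 45 of 46, weight slopes in 44 of 46, correlations of the pairs in 75 of 84, counts of probes in 66 of 100 and the slope of *KLF15* on *CEBPB* in 3 of 7. The cause was not tested where a value changed. After quantile normalisation the correlations with *KLF10* were 0.167 for *CEBPB*, 0.204 for *CEBPD* and 0.222 for *KLF15*, no longer past the threshold, *KLF10* differed by −0.0425 between batches 3 and 2 and by −0.17 between females and males, neither past it, the sex difference of the slope was −0.27, and 386 and 341 probes rose and fell with *KLF10*. That slope difference was −0.31 with the beta-actin difference in the fit, −0.34 with array weights and −0.31 in batch 2 alone, each short of the threshold. With no other effects in the fit, the weight slope turned to 0.26 per 10 kg for *CEBPB* and was 0.38 for *CEBPD*, both past the threshold, and the probes rising and falling were 2387 and 2073 with *CEBPD*, 2386 and 2062 with *KLF15*, and 553 and 674 with *KLF10*. With 2 principal components they were 155 and 155 with *CEBPB*, 279 and 312 with *CEBPD*, 228 and 298 with *KLF15*, and 358 and 500 with *KLF10*. Array weights gave 900 rising with *CEBPD* and 88 falling with *KLF10*. Without the 2 farthest pigs the correlation of *CEBPB* and *KLF10* was 0.216, short of the threshold, and 56 probes fell with *KLF10*. By its dim probe 2, *CEBPD* differed by −0.20 in batch 1 and by 0.0362, with the sign turned, in batch 3, neither past the threshold. Batch 2 alone gave 0.210 for *CEBPB* and *KLF10*, short of it, with 68 probes rising and 11 falling with *KLF10*. In females alone the correlations with *KLF10* were −0.0199 for *CEBPB*, with the sign turned, 0.159 for *CEBPD* and 0.143 for *KLF15*, none past the threshold, 922 and 411 probes rose and fell with *CEBPD*, 676 fell with *KLF15*, and 9 rose and 0 fell with *KLF10*. In males alone *CEBPD* and *KLF10* were at 0.369, short of the threshold, and the probes rising and falling were 1047 and 948 with *CEBPB*, 539 and 729 with *CEBPD*, 692 and 867 with *KLF15*, and 63 and 47 with *KLF10*. Fits of 1 sex or batch use fewer pigs. No paired analysis was possible because replicate numbers only name pigs and pair none. Relatives were not modelled. The dim *CEBPD* probe had its mean at the 2.28th percentile of all probes, and how far a low signal limits it was not tested.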
